A study of Mus musculus with 7 samples.

Results

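Immunoglobulin constant genes and variable segments were measured in RNA of marrow cells that had been sorted for the sinusoidal endothelium, the thin wall of the marrow's venous channels. Of 356 rows named as a variable segment of the heavy (Ighv), kappa (Igkv) or lambda (Iglv) locus or as one of 12 constant genes, 152 had a mean of at least 1 RPM (reads per 1000000 reads of a library) over all 7 libraries. These were 10 constant genes, 68 of 182 Ighv rows, 71 of 159 Igkv rows and all 3 Iglv rows. They were chosen by their level and not by the difference between groups. A row can pass such a rule through a single high group: 7 members, among them Ighg1 and Ighg2c, averaged at least 1 RPM in the treated group only, and 11 in the control group only.

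Wild-type mice had been irradiated and given Zbtb46dtr marrow, in which the receptor for diphtheria toxin (DT) is expressed from Zbtb46, a gene used to mark classical dendritic cells. After 8 weeks the recipients received 200 ng of DT in 100 µl of PBS (3 samples) or 100 µl of PBS alone (4 samples), and marrow was taken 1 day later. Both groups carried the same donor marrow, and the receptor is carried by cells from that marrow and not by the recipients' own cells. The sort kept CD31+ Sca1- cells and left out those positive for the blood cell antigens CD45, Ter119, Gr1 and CD11b. The labels call the samples biological replicates and do not name a strain, age or sex.

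B cells assemble each antibody gene by joining 1 variable (V) segment to a joining (J) segment, with a diversity (D) segment between them in the heavy chain, and transcribe the joined exon together with a constant gene. The constant gene sets the class: a naive B cell uses Ighm and Ighd, and class switching replaces them with Ighg1, Ighg2b, Ighg2c, Ighg3, Ighe or Igha. Every B cell clone carries its own joined exons, but different clones can use the same V segment, so a high segment does not by itself show a single clone. Plasma cells, which reside in marrow, hold far more immunoglobulin RNA than other B cells.

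The V segments that ranked first and second in their locus in each DT library, with Igkv14-126 added after its values were seen, are represented here by the last 90 coding bases of the germline segment. A read of this part can name the segment next to the junction, though whether this window is unique to each segment was not tested. Capitals mark the motif TANTNNTGN, which spans the codons of the tyrosine and the cysteine before the junction. The motif was searched on the coding strand only, and 204 of 213 annotated Ighv and Igkv segments (95.8%) hold it in this window.
Ighv9-3: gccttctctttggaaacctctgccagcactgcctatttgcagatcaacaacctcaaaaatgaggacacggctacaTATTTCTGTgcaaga
Ighv3-6: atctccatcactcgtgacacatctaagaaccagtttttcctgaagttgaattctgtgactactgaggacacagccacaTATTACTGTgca
Ighv1-47: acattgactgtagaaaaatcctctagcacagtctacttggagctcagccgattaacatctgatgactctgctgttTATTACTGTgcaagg
Ighv5-16: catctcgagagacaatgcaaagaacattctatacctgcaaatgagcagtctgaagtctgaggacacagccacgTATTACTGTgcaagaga
Ighv11-2: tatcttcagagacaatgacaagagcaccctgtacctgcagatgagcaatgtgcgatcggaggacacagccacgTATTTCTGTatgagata
Igkv8-30: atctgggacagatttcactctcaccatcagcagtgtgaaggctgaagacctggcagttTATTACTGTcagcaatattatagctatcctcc
Igkv3-4: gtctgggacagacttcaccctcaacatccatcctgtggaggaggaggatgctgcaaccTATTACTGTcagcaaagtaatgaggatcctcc
Igkv1-135: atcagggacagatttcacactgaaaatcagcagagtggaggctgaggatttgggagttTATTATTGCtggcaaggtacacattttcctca
Igkv4-55: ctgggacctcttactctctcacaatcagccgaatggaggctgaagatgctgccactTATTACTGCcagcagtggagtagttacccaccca
Igkv5-48: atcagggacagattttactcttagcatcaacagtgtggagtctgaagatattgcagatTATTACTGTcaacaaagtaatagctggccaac
Igkv12-89: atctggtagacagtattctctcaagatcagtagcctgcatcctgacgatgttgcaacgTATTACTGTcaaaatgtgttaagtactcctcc
Igkv14-126: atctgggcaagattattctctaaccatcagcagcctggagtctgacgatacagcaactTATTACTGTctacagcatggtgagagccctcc
The heavy chain stretches lie, on mm10, in the V exons of Ighv9-3 at chr12:114140692-114140781 (minus strand), Ighv3-6 at chr12:114288157-114288246 (minus strand), Ighv1-47 at chr12:114991108-114991197 (minus strand), Ighv5-16 at chr12:113838526-113838615 (minus strand) and Ighv11-2 at chr12:114048241-114048330 (minus strand). The kappa stretches lie in the V exons of Igkv8-30 at chr6:70117061-70117150 (minus strand), Igkv3-4 at chr6:70672288-70672377 (plus strand), Igkv1-135 at chr6:67610419-67610508 (plus strand), Igkv4-55 at chr6:69607275-69607364 (minus strand), Igkv5-48 at chr6:69726573-69726662 (minus strand), Igkv12-89 at chr6:68834846-68834935 (minus strand) and Igkv14-126 at chr6:67896553-67896642 (plus strand). The sequences are those of GENCODE vM21 transcripts, which give the reference allele and not the junctions of these cells. Over their coding length the Ighv segments shown were 53.0% to 69.4% identical to each other and the Igkv segments 54.4% to 70.9%. The nearest relative in the annotation was closer: Ighv11-2 was 98.9% identical to Ighv11-1, Igkv1-135 was 96.7% identical to Igkv1-133, and Ighv1-47 was 82.9% identical to Ighv1-53.

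The value of 1 read, read off as the commonest low value, gave 33200000 to 51200000 reads per library, and 3 reads equalled 0.0585 to 0.0904 RPM, a limit that covers counting error only, since amplified reads are not separate molecules. The defining markers of the labelled cell type were low: 12 endothelial genes summed to 1.45 to 9.35 RPM in PBS and 10.2 to 18.7 RPM in DT, with 9 of the 12 (Kdr, Tek, Tie1, Robo4, Cldn5, Stab1, Stab2, Flt4 and Emcn) under 1 RPM on average. Markers of B cell precursors (7 genes) summed to 2592 to 4133 RPM in PBS and 1106 to 1340 RPM in DT. Markers of neutrophils (8 genes) summed to 1440 to 2763 RPM in PBS and 48423 to 51972 RPM in DT. In such bulk samples, fewer cells of a type and less RNA per cell cannot be told apart. PBS replicate 3 stood apart from the other PBS libraries in Igha, in the lambda genes and in some kappa segments, and the tests of Igha, Jchain, Igkv19-93 and the lambda genes are given with and without it.

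Igha and Ighg1, constant genes of switched classes, were higher after DT, as was Ighd, whereas Ighg2b, Ighg2c and Ighm, the constant gene of IgM, did not pass the test. Of 10 constant members, Igha, Ighg1 and Ighd were higher in DT at an adjusted p under 0.05 and 0 were lower (limma, adjusted over all 14100 genes tested), against 13.4% of all tested genes higher and 18.6% lower. In Igha, Ighg1, Ighg2c and Ighd every DT library was above every PBS library, which held for 16.1% of all tested genes. Ighg1 and Ighg2c entered through the DT group alone. The median change of the 10 was 0.86 on the log2(RPM + 1) scale, beside -0.23 over all tested genes. Leaving out PBS replicate 3 raised the count of higher constant genes from 3 to 5, adding Igkc and Iglc1. Scaling by median ratios moved the median of all tested genes to -0.01 and that of the constant members to 1.11.

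**Figure D1:**
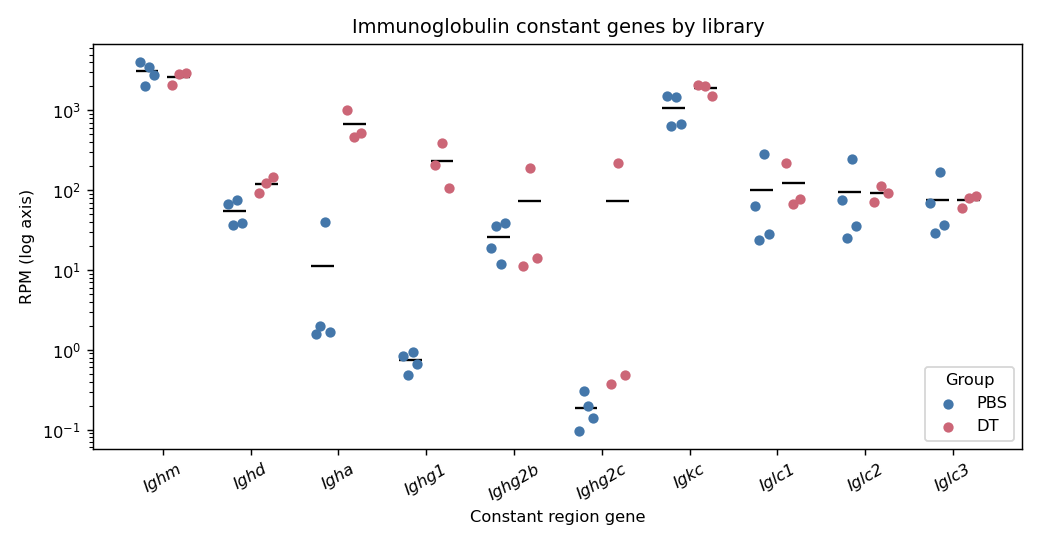
Level of each constant gene in RPM on a log axis, with 1 point per library (4 PBS, 3 DT) and a bar at the group mean. The Igha and Ighg1 points of the 3 DT libraries lie above 100 RPM, PBS replicate 3 lies above the other PBS libraries in Igha and in Iglc1 to Iglc3, and DT replicate 2 holds the single high value of Ighg2b and of Ighg2c.

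Ighm was at 3984, 2035, 3479 and 2805 RPM in PBS replicates 1 to 4 and at 2098, 2818 and 2904 RPM in DT replicates 1 to 3. The groups overlapped, and the difference was -0.21 on the log2 scale (SE 0.25; limma, adjusted p = 0.545). It turned to 0.04 under median-ratio scaling.

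Ighd, the constant gene of IgD, which mature naive B cells add to IgM by splicing, was at 66.3, 36.1, 74.7 and 38.9 RPM in PBS and at 92.6, 122 and 146 RPM in DT. All DT libraries were above all PBS libraries, and Ighd rose by 1.19 on the log2 scale (SE 0.28; limma, adjusted p = 0.0102). The means were 54.0 ± 19.4 RPM (SD, n = 4) and 120 ± 26.7 RPM (SD, n = 3). Without DT replicate 3 the adjusted p was 0.0537, and without a filter on low genes it was 0.0563.

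Igha, the constant gene of IgA, the class of mucosal antibodies, was at 1.57, 1.99, 39.6 and 1.66 RPM in PBS and at 1017, 460 and 516 RPM in DT. The lowest DT library was more than 10 times the highest PBS library, PBS replicate 3, which itself was far above the other PBS libraries. Group means were 11.2 ± 18.9 RPM (SD, n = 4) and 665 ± 307 RPM (SD, n = 3), a ratio of 59.3. On the log2 scale Igha rose by 6.86 (SE 0.86; limma, adjusted p = 0.00034), and by 7.84 without PBS replicate 3.

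Ighg1, the constant gene of IgG1, was at 0.844, 0.486, 0.949 and 0.673 RPM in PBS and at 206, 392 and 105 RPM in DT. The PBS values were all under 1 RPM but above the level of 3 reads, and the lowest DT library was more than 100 times the highest of them. The means were 0.738 ± 0.203 RPM (SD, n = 4) and 235 ± 146 RPM (SD, n = 3), a ratio of 318. On the log2 scale Ighg1 rose by 6.89 (SE 0.39; limma, adjusted p = 2.82e-06). The calls for Igha and Ighg1 held in all 17 alternative settings run.

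The other IgG genes were high in a single DT library. Ighg2c was at 0.0974, 0.303, 0.20 and 0.141 RPM in PBS and at 0.37, 216 and 0.48 RPM in DT. Ighg2b was at 18.6, 35.4, 12.0 and 38.9 RPM in PBS and at 11.1, 192 and 14.0 RPM in DT. Both high values belong to DT replicate 2, and neither gene passed the test (limma, adjusted p = 0.186 for Ighg2c and 0.745 for Ighg2b). Without DT replicate 2 the Ighg2b difference was -0.88 on the log2 scale.

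Ighg3 and Ighe, the constant genes of IgG3 and IgE, stayed below the rule. Ighg3 was listed at the offset of the table in all PBS libraries and in DT replicate 1, and at 0.286 and 0.429 RPM in DT replicates 2 and 3. Ighe was listed at the offset in every library, where 3 reads would be 0.0585 to 0.0904 RPM.

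Among light chains, the kappa constant gene Igkc was at 1527, 637, 1468 and 674 RPM in PBS and at 2101, 2027 and 1503 RPM in DT. The groups overlapped by the lowest DT and the highest PBS library, and the difference of 0.91 on the log2 scale (SE 0.33) did not pass (limma, adjusted p = 0.0607). It passed without PBS replicate 1 (limma, adjusted p = 0.014) or PBS replicate 3 (limma, adjusted p = 0.0397). It also passed with a minimum mean of 5, under median-ratio scaling and with sample weights (limma, adjusted p = 0.0476, 0.0372 and 0.0155), which makes 5 of 17 alternatives.

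The lambda constant gene Iglc1 was at 64.0, 23.8, 281 and 28.0 RPM in PBS and at 219, 67.9 and 76.9 RPM in DT. Its highest value was in PBS replicate 3, and the groups overlapped (0.81 on the log2 scale, SE 0.76; limma, adjusted p = 0.44). Without PBS replicate 3 it rose by 1.55 (limma, adjusted p = 0.0459). Iglc2 spanned 25.0 to 245 RPM in PBS and 71.6 to 113 RPM in DT, and Iglc3 spanned 29.3 to 167 RPM and 59.0 to 84.8 RPM, again with PBS replicate 3 highest in both. With all libraries their differences were 0.50 and 0.31 on the log2 scale (limma, adjusted p = 0.572 and 0.666), and without PBS replicate 3 they were 1.14 and 0.80 (limma, adjusted p = 0.0502 and 0.0895).

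Shares of the heavy chain classes, taken from RPM per kb of exon so that genes of different length can be compared, separate the makeup from the total. Switched classes held 0.368%, 1.29%, 1.04% and 1.02% of the heavy constant level in PBS and 28.6%, 26.4% and 12.9% in DT. Ighm held 96.9% to 98.0% in PBS and 68.4%, 70.6% and 82.9% in DT. The lowest DT share of switched classes was several times the highest PBS share.

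The class that dominated the switched part differed between DT libraries. The level of a constant gene does not show whether it was transcribed with a V segment, and this was not tested. Igha held 82.0% of the switched level per kb in DT replicate 1 and 80.7% in DT replicate 3, but 30.9% in DT replicate 2, where Ighg2c held 29.2% and Ighg1 27.1%. In PBS the small switched part was mostly Ighg2b, at 87.6%, 91.9% and 93.6% in replicates 1, 2 and 4, and 22.6% in replicate 3, where Igha held 74.8%.

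**Figure D2:**
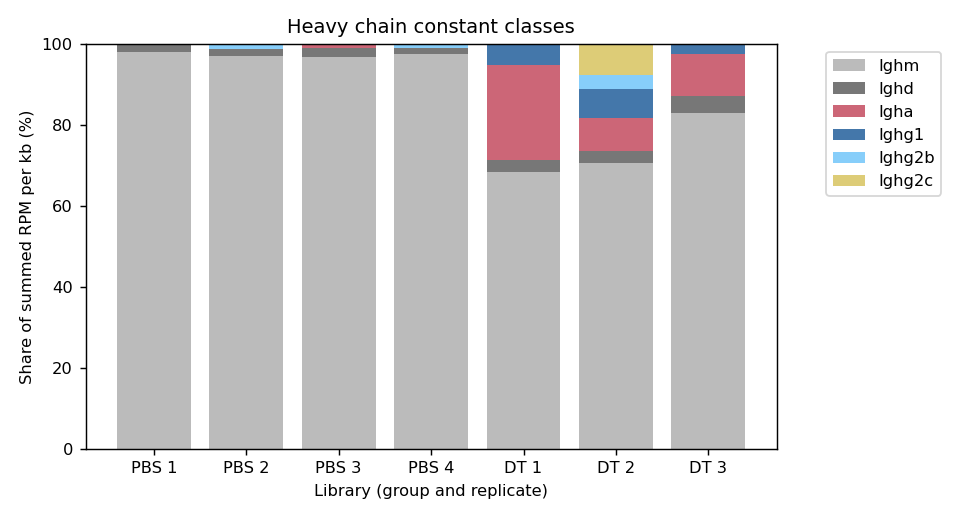
Share of each heavy chain class in the summed heavy constant level (RPM per kb, in %), with 1 stacked bar per library. Ighm fills at least 96.9% of every PBS bar, and switched classes take 12.9% to 28.6% of the DT bars, with a different mix in DT replicate 2.

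The light chain makeup did not move in that way. Igkc held 87.3%, 88.3%, 66.5% and 86.4% of the light chain constant level per kb in PBS and 84.4%, 88.1% and 84.8% in DT. Apart from PBS replicate 3, with its high lambda genes, the shares of the groups overlapped. Within lambda, Iglc1 held 66.1% in DT replicate 1 and 29.2% to 44.5% in the other libraries.

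The ratios of Igkc, Ighm and Ighd to Cd79a, a subunit of the B cell receptor, were higher in DT. The ratio of Igkc to Cd79a, both in RPM, was 0.512 to 1.05 in PBS and 2.03 to 3.11 in DT. The ratio of Ighm to Cd79a was 2.13 to 2.74 in PBS and 3.10 to 3.92 in DT, and that of Ighd was 0.0296 to 0.0531 and 0.137 to 0.197. None of these ratios overlapped between groups, and how often the ratio of another gene to Cd79a separates the groups was not counted. Cd79a itself was lower in DT, at 892 to 1457 RPM in PBS and 676 to 740 RPM in DT (limma, adjusted p = 0.0105, and 0.0733 under median-ratio scaling). The group mean of DT over that of PBS was 0.566 for Cd79a, 0.848 for Ighm, 1.74 for Igkc and 2.23 for Ighd. The mean of Ighm was not higher in DT, so its higher ratio lies in the lower Cd79a.

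The summed level of variable segments was higher in every DT library than in any PBS library, in both large loci. Among single genes such a separation held for 16.1% of those tested. The sums run over members chosen by their mean. Of the variable members, 5 averaged at least 1 RPM in DT only and 11 in PBS only. Ighv members summed to 313, 108, 260 and 163 RPM in PBS and to 471, 587 and 438 RPM in DT. Igkv members summed to 436, 177, 614 and 171 RPM in PBS and to 1081, 1010 and 695 RPM in DT. The 3 Iglv members summed to 94.8, 34.4, 360 and 44.1 RPM in PBS and to 216, 92.1 and 96.8 RPM in DT, with overlap; apart from PBS replicate 3 the PBS sums ended at 94.8 RPM, still above the lowest DT sum. All 152 members together held 0.382% to 0.929% of the column sum in PBS and 0.825% to 1.03% in DT.

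The typical variable segment did not follow its sum. The median Ighv member was at 3.84, 1.34, 3.07 and 1.87 RPM in PBS and at 2.07, 2.36 and 2.495 RPM in DT. The median Igkv member was at 3.98, 1.57, 4.91 and 1.60 RPM in PBS and at 2.30, 3.50 and 3.88 RPM in DT. Both medians overlapped between groups, so the higher sums of the DT libraries lay in a limited number of segments.

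That concentration was measured by the effective number of segments, the number of equally abundant segments that would give the same Shannon entropy of the RPM per kb shares. For Ighv it was 54.4, 54.3, 53.3 and 54.2 in PBS and 21.5, 19.0 and 23.3 in DT. For Igkv it was 49.2, 37.7, 38.6 and 45.9 in PBS and 11.6, 21.9 and 27.3 in DT. The groups did not overlap in either locus, and DT replicate 1 was the most concentrated library in Igkv but not in Ighv.

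The 10 most abundant Ighv segments of a library held 34.8% to 37.5% of the Ighv level per kb in PBS and 66.5% to 78.5% in DT. For Igkv the 10 most abundant held 41.2% to 52.7% in PBS and 67.0% to 84.2% in DT. In every library at least 67 of 68 Ighv members and 68 of 71 Igkv members were above the level of 3 reads.

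**Figure D3:**
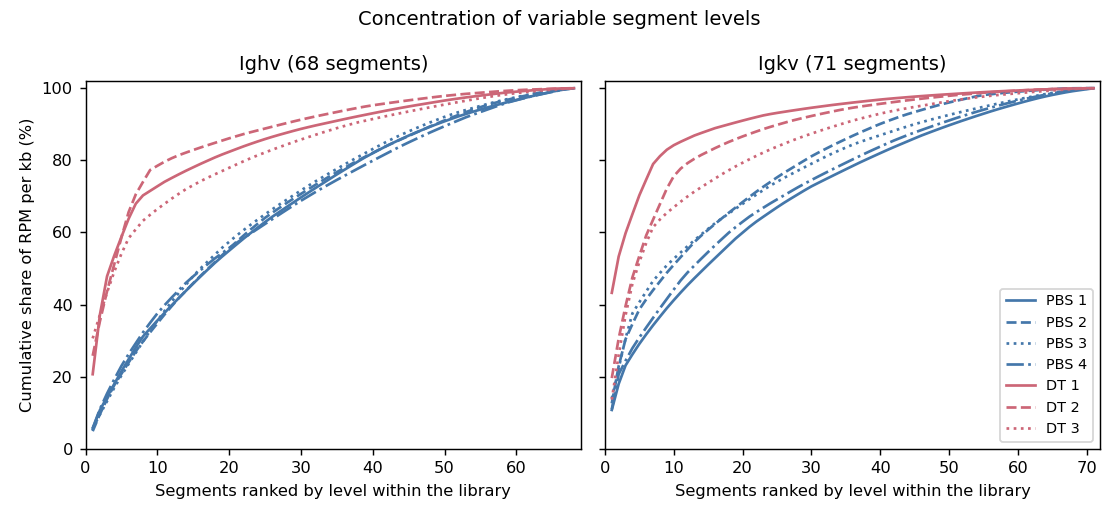
Cumulative share of the Ighv (left) and Igkv (right) level per kb, in %, against the number of segments ranked from the most abundant, with 1 line per library. The 3 DT lines climb steeply over the first 10 segments, to between 66.5% and 84.2%, whereas the PBS lines reach 34.8% to 52.7%.

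The leading segments of the DT libraries were as follows. In Ighv, Ighv9-3 led in DT replicate 1 with 20.7% of the Ighv level per kb, followed by Ighv1-47 with 16.4%. Ighv9-3 also led in DT replicate 2 with 25.8%, followed by Ighv5-16 with 9.52%, and Ighv3-6 led in DT replicate 3 with 30.6%, followed by Ighv11-2 with 6.51%. No Ighv segment passed 5.69% in a PBS library.

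In Igkv, Igkv8-30 held 43.3% of the Igkv level per kb in DT replicate 1, ahead of Igkv4-55 with 10.1%. Igkv3-4 held 19.6% in DT replicate 2, ahead of Igkv5-48 with 11.0%, and Igkv1-135 held 13.6% in DT replicate 3, ahead of Igkv12-89 with 12.4%. In PBS the leading Igkv segment was Igkv1-135 in replicates 1, 2 and 4 (10.8% to 12.6%) and Igkv19-93 in replicate 3 (14.0%).

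Igkv8-30 was at 9.52, 4.23, 17.7 and 4.37 RPM in PBS and at 457, 12.5 and 7.48 RPM in DT. Igkv3-4 was at 4.10, 1.97, 5.69 and 1.46 RPM in PBS and at 3.81, 196 and 2.34 RPM in DT. Ighv3-6 was at 16.6, 3.23, 9.37 and 8.22 RPM in PBS and at 5.54, 38.6 and 124 RPM in DT. Each was high in 1 DT library, Ighv3-6 also to a lesser degree in a second, and at the PBS level in at least 1 other. None passed the test (limma, adjusted p = 0.188, 0.245 and 0.129). Without DT replicate 1 Ighv3-6 rose by 2.94 (limma, adjusted p = 0.0105).

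Igkv1-135 and Igkv19-93 were the leading kappa segments of the PBS libraries. Igkv1-135 was at 49.9, 23.7, 54.0 and 19.8 RPM in PBS and at 24.8, 23.0 and 101 RPM in DT. Igkv19-93 was at 30.8, 12.96, 82.3 and 16.2 RPM in PBS and at 18.6, 15.4 and 14.7 RPM in DT. Both overlapped between groups (limma, adjusted p = 0.797 and 0.312), and Igkv1-135 was high in DT replicate 3 alone among the DT libraries. The high Igkv19-93 value is that of PBS replicate 3, without which its difference was -0.20 on the log2 scale (limma, adjusted p = 0.672).

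Counted over the list, 36 of 142 variable members reached at least 5 times their PBS median in a DT library, against 7.97% of all tested genes. They did so in DT replicate 1 for 12 members, in DT replicate 2 for 18 and in DT replicate 3 for 13. Of the 36, 29 did so in 1 DT library, 7 in 2 and 0 in all 3. Of the 1124 tested genes that reached this level, 690 did so in all 3 DT libraries. The segments reaching it in 2 libraries were Ighv1-47, Ighv5-17, Ighv9-3, Ighv11-2, Igkv1-110, Igkv5-48 and Igkv14-126.

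In 27 variable members a DT library was highest and at least 3 times the next library, 8 of them in DT replicate 1, 11 in DT replicate 2 and 8 in DT replicate 3. Among all tested genes this held for 0.809%. It held in PBS for 1 variable member, in PBS replicate 3.

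**Figure D4:**
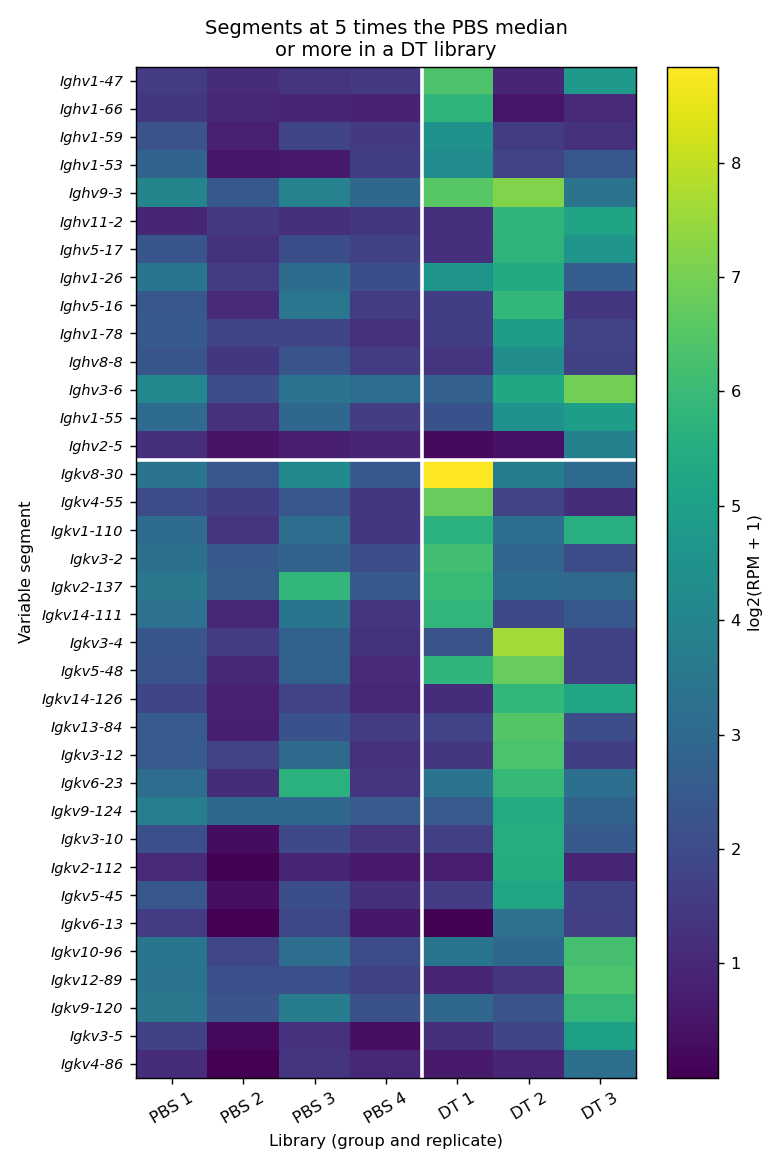
Level on the log2(RPM + 1) scale of the 36 variable segments that reached 5 times their PBS median in a DT library, with libraries in columns and Ighv above Igkv. Bright cells fall mostly in 1 DT column per row (29 of 36 rows), and 0 rows reached 5 times the PBS median in all 3 DT libraries.

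Between groups, few variable segments passed the test. Of 142 members, 5 were higher in DT and 0 lower (limma, adjusted over all tested genes), against 13.4% and 18.6% of all tested genes, and 13 had an unadjusted p under 0.05. In 2 members all DT libraries were above all PBS libraries, and in 3 (Ighv14-3, Ighv5-9 and Igkv1-35, named after their values were seen) all were below, against 16.1% and 24.7% of all tested genes. The median change was 0.02 on the log2 scale for Ighv and 0.27 for Igkv, beside -0.23 over all tested genes. Under quantile normalization and equal column sums the Ighv median was -0.03 and -0.02, and under median-ratio scaling it was 0.19. Without PBS replicate 2 the medians were -0.20 for Ighv and 0.04 for Igkv, without PBS replicate 1 they were 0.16 and 0.46, and among members with a mean of at least 5 they were 0.89 and 0.86. A single high DT library can lift a segment past a mean of 5, so that filter favours segments with a peak in DT.

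The 5 calls depended on single libraries. Without PBS replicate 2, or without PBS replicate 3, Igkv1-110 was the 1 call left. Without PBS replicate 4, or without DT replicate 2, 2 members were higher, without DT replicate 3 it was 3, and without PBS replicate 1 it was 8. Without DT replicate 1 it was again 5, of which Ighv11-2 was the 1 member shared with the 5 above. Of 17 alternative settings, the call held in 14 for Igkv1-110, 10 for Ighv11-2, 8 for Ighv9-3 and 5 for Igkv5-48. Ighv1-41 kept it in 7 of the 16 settings in which it was tested.

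The spread of variable members within groups, as the median SD of log2(RPM + 1), was 0.664 in PBS and 0.441 in DT for variable members, and 0.361 in PBS and 0.213 in DT over all tested genes. A median SD describes the typical member and leaves out the peaks. A library at 3 times the next or more was a DT library in 27 variable members and a PBS library in 1. The groups also differ in size (4 PBS and 3 DT libraries).

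Igkv1-110 was at 7.58, 1.57, 8.20 and 1.67 RPM in PBS and at 49.6, 8.32 and 45.3 RPM in DT. The lowest DT library was just above the highest PBS library, and Igkv1-110 rose by 2.53 on the log2 scale (SE 0.68; limma, adjusted p = 0.0181). The call was lost without DT replicate 1 or DT replicate 3 (limma, adjusted p = 0.0811 and 0.084). Only 49.2% of its 50-base stretches are unique among annotated transcripts, so reads of close relatives may be counted with it.

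Ighv9-3 was at 15.4, 4.35, 14.1 and 6.70 RPM in PBS and at 92.0, 142 and 9.68 RPM in DT. DT replicate 3 lay within the PBS range, and the rise of 2.38 on the log2 scale (SE 0.79; limma, adjusted p = 0.0431) was carried by DT replicates 1 and 2. Without DT replicate 2 the adjusted p of limma was 0.169, and without DT replicate 1 it was 0.152. Igkv5-48 was alike, at 3.92, 0.971, 5.72 and 1.14 RPM in PBS and at 53.8, 110 and 2.30 RPM in DT (2.98, SE 1.02; limma, adjusted p = 0.049).

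Ighv11-2 was at 0.916, 1.81, 1.33 and 1.71 RPM in PBS and at 1.35, 54.1 and 34.8 RPM in DT, and rose by 2.79 on the log2 scale (SE 0.89; limma, adjusted p = 0.0383). Igkv14-126 was at 2.59, 0.741, 2.51 and 0.957 RPM in PBS and at 1.21, 57.0 and 35.7 RPM in DT (2.71, SE 0.94; limma, adjusted p = 0.0514). Both were high in DT replicates 2 and 3 and at the PBS level in DT replicate 1. Without DT replicate 2 or DT replicate 3 Ighv11-2 did not pass (limma, adjusted p = 0.15 and 0.148), and without DT replicate 1 Igkv14-126 rose by 4.17 (limma, adjusted p = 0.000427). Igkv14-126 also passed with a pseudocount of 5, a minimum mean of 5, sample weights and without PBS replicate 1 (limma, adjusted p from 0.0389 to 0.045), and did not pass in the other 12 alternatives. As background, this heavy and light chain combination is known from B-1a cells that bind phosphatidylcholine. Whether the RNA came from the same cells was not tested.

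Ighv1-47 was at 1.87, 1.18, 1.53 and 1.84 RPM in PBS and at 82.7, 0.93 and 26.4 RPM in DT, and Ighv1-26 at 9.93, 1.94, 7.69 and 3.32 RPM in PBS and at 23.1, 41.0 and 5.24 RPM in DT. Each was high in DT libraries other than 1 that lay within or below the PBS range, and neither passed (limma, adjusted p = 0.0658 and 0.0784). Without the low DT library each passed (limma, adjusted p = 0.000526 for Ighv1-47 and 0.0177 for Ighv1-26), and Ighv1-26 also passed without PBS replicate 1 (limma, adjusted p = 0.0374). Ighv1-41, annotated as a pseudogene, was at 1.05, 0.693, 1.11 and 1.56 RPM in PBS and at 2.83, 3.27 and 2.30 RPM in DT. It rose by 0.86 on the log2 scale (SE 0.28; limma, adjusted p = 0.0431), without overlap.

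The 3 lambda segments, like the 3 lambda constant genes, were highest in PBS replicate 3. With all libraries Iglv1, Iglv2 and Iglv3 differed by 0.75, -0.25 and 0.06 on the log2 scale. Iglc1, Iglc2 and Iglc3 differed by 0.81, 0.50 and 0.31. Iglv1 was at 61.2, 24.3, 242 and 24.6 RPM in PBS and at 192, 58.7 and 70.6 RPM in DT. Iglv2 was at 24.0, 6.41, 84.0 and 12.9 RPM in PBS and at 15.2, 22.5 and 14.8 RPM in DT, and Iglv3 at 9.67, 3.71, 34.1 and 6.60 RPM in PBS and at 8.56, 10.9 and 11.4 RPM in DT. PBS replicate 3 was highest in each, DT replicate 1 was high in Iglv1 alone, and none passed (limma, adjusted p = 0.463, 0.803 and 0.944). Without PBS replicate 3 the differences were 1.45, 0.41 and 0.63 on the log2 scale, and again none passed (limma, adjusted p = 0.0565, 0.50 and 0.213).

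By family, the summed levels of Igkv3 and Igkv14 were above every PBS library in every DT library, and those of the other families overlapped. Among single genes such a separation held for 16.1% of all tested genes. The 34 members of Ighv1, the largest family, summed to 145, 46.2, 101 and 65.4 RPM in PBS and to 304, 167 and 144 RPM in DT. The 6 members of Igkv3 summed to 9.06 to 28.4 RPM in PBS and to 80.3, 335 and 45.0 RPM in DT, and the 3 members of Igkv14 to 1.94 to 16.5 RPM and to 59.0, 61.4 and 41.2 RPM. Different segments carried these DT sums. In Igkv3 they were Igkv3-2 in DT replicate 1 (70.1 RPM), Igkv3-4 in replicate 2 (196 RPM) and Igkv3-5 in replicate 3 (31.6 RPM). In Igkv14 they were Igkv14-111 in DT replicate 1 (56.0 RPM) and Igkv14-126 in replicates 2 and 3 (57.0 and 35.7 RPM). The 8 members of Igkv8 summed to 21.2 to 85.2 RPM in PBS and to 487, 43.4 and 49.4 RPM in DT, and most of the high value was Igkv8-30 in DT replicate 1. The 4 members of Ighv14 summed to 11.9 to 21.0 RPM in PBS and to 9.90, 9.61 and 13.02 RPM in DT.

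Heavy chain members lie on chromosome 12 between 113254830 and 116000461, kappa members on chromosome 6 between 67555497 and 70726966, and lambda members on chromosome 16 between 19061618 and 19260859 (mm10, GENCODE vM21). Of the rows annotated as V genes, 139 of 216 were members, and of those annotated as V pseudogenes 3 of 127. The 23 Ighv members nearest the J segments (149 to 859 kb away) had a median change of -0.10 on the log2 scale, the middle 23 of -0.18 and the farthest 22 of 0.32. For Igkv the medians from nearest to farthest were 0.32, 0.27 and 0.20. Members past the test lay in each part of Ighv except the farthest, and in the middle and farthest parts of Igkv.

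**Figure D5:**
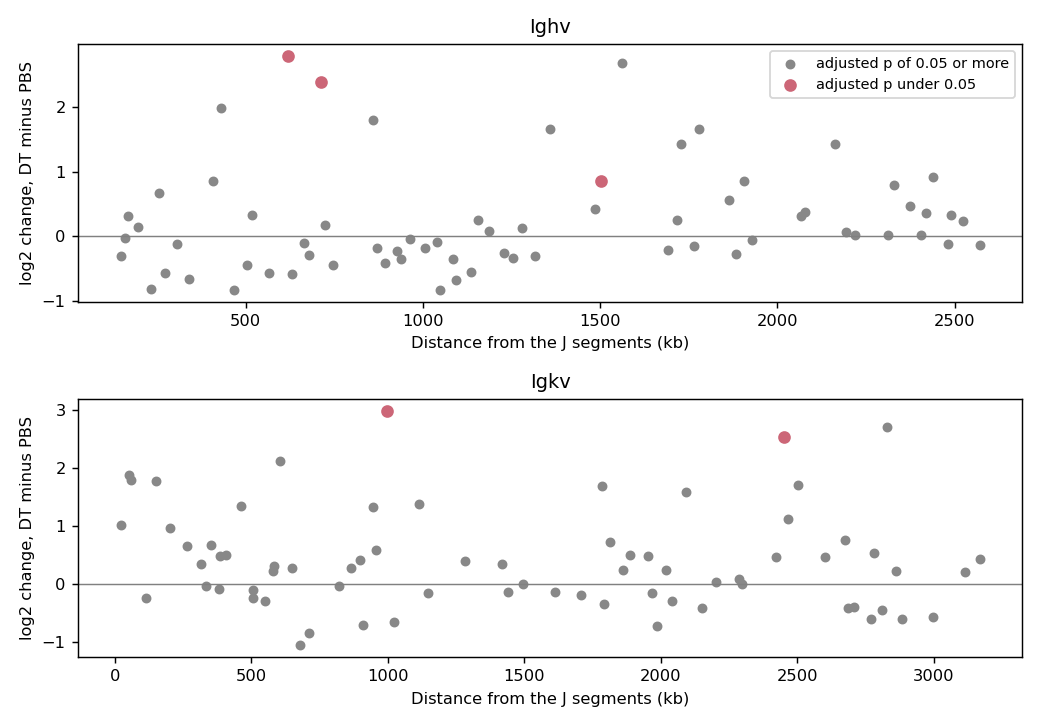
Change of each Ighv (top) and Igkv (bottom) member on the log2(RPM + 1) scale, DT minus PBS, against its distance from the J segments in kb. Red points passed the test (3 Ighv and 2 Igkv), and points above and below 0 occur in both loci. In Ighv they are not mixed throughout. All members from Ighv9-4 (870 kb) to Ighv15-2 (1135 kb) lie below 0. All from Ighv1-63 (2066 kb) to Ighv1-78 (2439 kb) lie above 0. These stretches were picked after the values were seen.

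Rows of joining segments, which lie outside the rule and were looked up after the other values were seen, were also higher in part. Ighj1 was at 6.21, 2.20, 5.03 and 3.29 RPM in PBS and at 16.4, 20.5 and 20.0 RPM in DT, and rose by 2.01 on the log2 scale (SE 0.32; limma, adjusted p = 0.00142). Igkj2 was at 8.47, 3.17, 8.43 and 3.34 RPM in PBS and at 50.9, 18.6 and 15.5 RPM in DT, and rose by 2.02 (SE 0.47; limma, adjusted p = 0.00974). Neither overlapped between groups, and the highest Igkj2 value is in DT replicate 1, where Igkv8-30 led. The other 7 J rows with a mean of at least 1 RPM did not pass. Among them Igkj1 did not overlap either, at 1.11 to 5.56 RPM in PBS and 5.64 to 8.25 RPM in DT (limma, adjusted p = 0.0588). Over all tested genes 13.4% were higher, and in 16.1% every DT library was above every PBS library. All 20 D segment rows were listed at the offset. They are 10 to 29 bases long, shorter than the reads of 50 bases, so this does not show that D sequence was absent.

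Genes that act with immunoglobulins were taken as a list. Of 36 genes of antigen receptor assembly, B cell receptor signalling and antibody secretion, 31 were tested, and 4 were higher and 14 lower in DT (limma), beside 13.4% of all tested genes higher and 18.6% lower. Jchain, which links IgA and IgM into polymers, was at 0.783, 3.63, 38.7 and 1.66 RPM in PBS and at 337, 353 and 233 RPM in DT (adjusted p = 0.000981, limma, and 1.05e-05 without PBS replicate 3). Its PBS pattern, with replicate 3 high, was that of Igha.

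The other higher genes were Fcer2a, the low-affinity IgE receptor CD23, Cr2, the complement receptor CD21, and Xbp1, a transcription factor of secretory cells. Fcer2a was at 1.09 to 9.01 RPM in PBS and at 28.7 to 60.6 RPM in DT, and Cr2 at 0.724 to 1.43 RPM and 6.11 to 7.36 RPM. Xbp1 was at 66.5 to 85.5 RPM in PBS and 109 to 129 RPM in DT. The groups did not overlap in any of the 3.

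Among the lower genes, Rag1 and Rag2, which cut DNA for V(D)J recombination, were at 123 to 178 and 88.0 to 173 RPM in PBS and at 42.4 to 67.4 and 49.4 to 55.2 RPM in DT. Vpreb3, a protein of B cell precursors, was at 876 to 1291 RPM in PBS and 351 to 408 RPM in DT, and Pax5, the B lineage transcription factor, at 182 to 324 RPM and 99.9 to 138 RPM.

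The marker list of plasma cells (8 genes, 6 tested) had 2 genes higher (Jchain and Xbp1) and 2 lower (Mzb1 and Irf4) in DT. Mzb1 was at 179 to 294 RPM in PBS and 121 to 134 RPM in DT (limma, adjusted p = 0.00885). Irf4 was at 94.7 to 209 RPM and 50.7 to 89.3 RPM (limma, adjusted p = 0.0157). The list summed to 372 to 638 RPM in PBS and 563 to 713 RPM in DT, with Prdm1 and Tnfrsf17 under 1 RPM on average. Jchain alone made up 337, 353 and 233 RPM of the DT sums of 636, 713 and 563 RPM. The list of mature B cells (6 genes) had 2 higher and 0 lower and summed to 426 to 942 RPM in PBS and 607 to 823 RPM in DT, and that of B cell precursors had 5 of 7 lower. Over all tested genes 13.4% were higher and 18.6% lower. The part of these cell types in the immunoglobulin values was not tested.

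How far reads can name a segment differs between members. The median share of 50-base stretches found in no other annotated transcript was 99.8% for constant members, 80.5% for Ighv and 74.7% for Igkv, with a lowest value of 2.58% in Ighv. All 50-base stretches of Ighv1-47, Igkv5-48, Igkv12-89, Igkv14-126, Ighm, Ighd, Igha and Igkc were unique. The share was 80.9% for Igkv8-30, 76.8% for Ighv9-3, 65.9% for Igkv3-4, 63.5% for Igkv1-135, 61.4% for Ighv11-2 and 46.7% for Igkv4-55. Levels of segments with such lower shares may include reads of close relatives, and somatic mutations can take reads away from any segment.

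At the limit of the rule, Ighv12-3 and Ighv3-8 had means of 1.00 and 1.02 RPM and were members, and Igkv4-74 and Igkv4-70 had means of 0.998 and 0.99 RPM and were not. Of 204 rows below the rule, 68 were listed at the offset in all 7 libraries, and 32 reached 1 RPM in at least 1 library.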

How the data were processed

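RNA of 4 PBS and 3 DT samples was made into libraries from 1 ng of total RNA by a SMARTer ultra-low input kit with 14 cycles of amplification and read as single reads of 50 bases, per the labels' protocols. STAR 2.5.3a, Partek and mm10 are named per the submitters' processing notes; how reads were assigned to genes, with which annotation and strand setting, is not stated there. The authors deposited 1 table named as FPKM whose values act as RPM, scaled by the authors to reads per 1000000 reads of a library. Within a library the most frequent value was shared by 1029 to 1206 genes of different lengths. An offset of 0.0001 marks no signal. Per library 60.5% to 62.2% of low values were whole within a tolerance of 0.02 reads, so the reads could not be recovered as whole numbers and a count model was not applied. Reads shared by related segments may be split in the table, and antisense reads cannot be told apart.

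Rows averaging at least 1 RPM (14100 of 50435 rows) were fitted on log2(RPM + 1), a scale that understates changes of low genes, with limma 3.58.1 in R 4.3.3 with an intensity trend, two-sided, Benjamini-Hochberg adjustment over all genes tested and a threshold of 0.05. The planned design had assumed FPKM, and the same test was kept. Ratios called folds or ratios are of group means in RPM. Levels of different genes were compared per kb of GENCODE vM21 exon. Shares and effective numbers are descriptions with no test. The method was tested on simulated data in which all genes shared a common dispersion and no gene peaked in a single library. That test therefore does not bear on variable segments with such a peak.

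The members and lists were chosen with earlier results of these data known. Named are all constant members, the 5 Ighv and 5 Igkv members with the highest mean, called and non-overlapping members (up to 5 in each direction), all Iglv members, rows next to the limit of the rule and up to 4 pathway genes in each direction with the smallest p. Because a single high library raises a mean, the rule favours segments with a peak. Igkv14-126, Igkv4-55, Igkv12-89, Ighv5-16, Ighv5-17, Cd79a and the J segments were chosen after their values were seen. Alternatives covered the pseudocount, the filter, scaling, sample weights, the variance trend, a block for the replicate number and leaving out each library. Shares of RPM in place of RPM per kb were added after seeing the data.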

Additional observations from a re-analysis of the deposited data

Results flagged for a closer look

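In the group of 4 PBS libraries, a single library lay far from the others in 7 of 58 values checked (Dixon's test at the 95% level). Chance alone meets that level in about 1 of 20 groups of independent, normally spread values. Whether the values checked are so spread was not tested, and some restate others, as the level and the share of Igha do. The 7 are therefore not separate observations to set beside that rate. In 6 of the 7 the library was PBS replicate 3. There Igha was at 39.6 RPM, with the next PBS library at 1.99 RPM, and Jchain at 38.7 RPM, with the next at 3.63 RPM. Iglc1 was at 281 RPM, with the next at 64.0 RPM, and Iglv1 at 242 RPM, with the next at 61.2 RPM. The share of Igha in the heavy chain constant level per kb was 0.779%, against at most 0.0672% in the other PBS libraries. Igkc held 66.5% of the light chain constant level per kb, against at least 86.4%. The seventh value was low in PBS replicate 2, where the leading Ighv segment held 4.89% of the Ighv level, against at least 5.56% in the others. Over all members taken singly, 9 of 152 met the same test. The cause was not tested.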

How the results depend on the processing

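The calls for Igha and Ighg1 held in all 17 alternatives run, and Ighd lost its call without a filter and without DT replicate 3. Counts of called variable segments were small and moved most: 5 higher became 3 with a pseudocount of 0.1, 0 without a filter on low genes, 2 without an intensity trend and 1 to 8 when 1 library was left out. The count lower, 0 in the fit reported, was 1 under quantile normalization, equal column sums, no intensity trend or sample weights, and 0 to 1 with 1 library left out. For constant genes, 2 to 5 were higher and 0 lower with 1 library left out. Over all genes, 2622 lower became 1689 without a filter and 1252 under median-ratio scaling (with 2402 higher in place of 1894), and 1215 to 3613 with 1 library left out, against 1424 to 2077 higher.

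Replicate numbers did not pair the samples: the correlations of deviations between samples of the same number were 0.0363, 0.0453 and 0.0266. A fit with the replicate block, which has to leave out PBS replicate 4 as well, called 1555 genes lower and 3 variable segments higher, and gave -0.0413 for Igkv1-135 and -0.10 for Iglv3 on the log2 scale. Leaving out PBS replicate 4 without the block gave 1838 genes lower, 2 variable segments higher and the same differences for both genes, so those differences come from the library left out. Each of these samples correlated best with its own number, a hint from the data and not from the design.

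Directions of genes that did not pass turned as follows. Ighm was at 0.0411 under median-ratio scaling. Iglv3 was at -0.0240 with a pseudocount of 5 and at -0.0629 with sample weights. With 1 library left out, Igkv1-135 ran from -0.48 to 0.57, Iglv2 from -0.76 to 0.41, Iglv3 from -0.33 to 0.63, Ighg2b from -0.88 to 1.12 and Iglc3 from -0.0259 to 0.80.

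The effective number of Ighv segments was 54.1 in PBS and 21.3 in DT on average. By the inverse Simpson index it was 44.3 and 9.65, over all variable rows 68.6 and 25.2, and over members with a mean of at least 5 it was 15.2 and 8.19. For Igkv, 42.8 in PBS became 26.0, 51.6 and 20.9, and 20.3 in DT became 10.8 by inverse Simpson. DT was lower than PBS in every one of these. Leaving out 1 library gave 53.9 to 54.3 and 20.3 to 22.4 for Ighv, and 40.7 to 44.5 and 16.8 to 24.6 for Igkv. Without Ighm and Ighd, Igha held 22.8% of the heavy level per kb in PBS and 64.5% in DT, in place of 0.229% and 14.0%. Both PBS means depend on PBS replicate 3: in the other 3 PBS libraries the share without Ighm and Ighd was 4.00% to 7.41%, and the mean share with them was 0.0451%. Among members with a mean of at least 5, the median change was 1.41 in the nearest and 1.17 in the farthest part of Ighv, and 1.01 in the nearest and 1.32 in the middle part of Igkv, but -0.23 in the middle part of Ighv and 0.50 in the farthest part of Igkv. A mean of at least 5 favours segments that a single DT library lifts. Members at 5 times the PBS median or more in a DT library were 4, 2 and 4 of 6 from nearest to farthest in Ighv. In Igkv they were 7 of 11, 7 of 11 and 6 of 10. Otherwise the cause of these changes was not tested, apart from the smaller number of members and samples that the settings leave. Ighe was listed at the offset in every library, where 3 reads would be 0.0585 to 0.0904 RPM.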

Other observations

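The V segments were also set against the constant genes they are transcribed with. The ratio of summed Ighv to summed heavy constant levels, both in RPM, was 0.0511 to 0.0770 in PBS and 0.119 to 0.140 in DT. The ratio of summed Igkv to Igkc was 0.253 to 0.418 in PBS and 0.462 to 0.515 in DT. For lambda the ratio was 0.440 to 0.520 in PBS and 0.352 to 0.618 in DT. The heavy and kappa ratios did not overlap between groups and the lambda ratio did. In 16.1% of all tested genes every DT library was above every PBS library. How often a ratio of this kind separates the groups was not counted. The summed segments are members chosen by their mean, which a single high library can raise.

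Some kappa segments were high in 1 PBS library and 1 DT library at once. Igkv2-137 was at 10.6, 5.09, 56.7 and 4.48 RPM in PBS and at 63.0, 7.63 and 7.23 RPM in DT. Igkv6-23 was at 7.93, 1.21, 49.3 and 1.55 RPM in PBS and at 9.27, 60.3 and 8.27 RPM in DT. Both PBS values are those of replicate 3, the library with high Igha and lambda levels. These segments were named after their values were seen.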
